A study of Mus musculus with 26 samples.

Results

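The PDGF system of the mouse comprises 4 ligand genes, Pdgfa, Pdgfb, Pdgfc and Pdgfd, and 2 receptor genes, Pdgfra and Pdgfrb. All 6 genes were on the array, which carried 12 probes named for them, among 41174 probes in all. Every probe that was not a control spot and whose gene name in the scanner files equalled one of the 6 symbols was taken. All 12 probes and all 6 genes passed the filter on dim probes, which kept 39591 probes and 26647 genes. The ligand genes had 9 of the 12 probes.

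PDGF ligands are secreted growth factors that act as dimers. PDGF-A and PDGF-B are cut inside the cell, mostly by furin-like proteases, whereas PDGF-C and PDGF-D are secreted with a CUB domain that plasminogen activators and related proteases must remove. The receptors are tyrosine kinases of the surface of mesenchymal cells: PDGF-A and PDGF-C act mainly through the alpha receptor, PDGF-D mainly through the beta receptor, and PDGF-B through both. In the liver, stellate cells and portal fibroblasts carry the receptors, and PDGF-B is known as a strong mitogen for stellate cells, while platelets, macrophages, endothelium and injured biliary epithelium are known sources of ligands.

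The cells came from livers of Foxl1-Cre; RosaYFP mice aged 6 to 10 weeks. In these mice Cre is driven by Foxl1 sequences, Foxl1 being a forkhead factor that marks a progenitor population of the injured liver, and YFP stays on in every cell that has had Cre and in its progeny. Mice were fed a diet with DDC, a porphyrinogenic compound that injures bile ducts and evokes a ductular reaction, and YFP-positive and YFP-negative cells were then sorted from the CD45-negative non-parenchymal cells. The YFP-positive groups had 4 arrays at day 3 of the diet, 3 at day 7 and 2 at day 14. The YFP-negative groups had 3 arrays at each of these days. Total non-parenchymal cells of the same genotype on chow, called day 0 here, had 2 arrays. They carried the same alleles but were a different population from the sorted fractions, since the labels describe no YFP or CD45 selection for them. Scanner files of 20 of the 26 samples were used, and the other 6 samples were not analysed here. The labels do not say whether the samples of a group came from separate mice or from pools, so the p-values measure only the spread between these samples.

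Each array was a 1-colour Agilent whole-genome array with amplified, Cy3-labelled cDNA. A level below is the log2 of the processed signal minus the 75th percentile of that array, so that 0 stands for the signal of the 75th percentile of its probes and a step of 1 for a doubling. Levels of different probes are not compared, since each probe has its own brightness. Tests were made with limma in 1 fit over the 7 groups, with p-values adjusted by Benjamini-Hochberg over all 26647 genes and a threshold of 0.05.

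Between 81.0% and 91.2% of the probes were well above background on each array. The label of the fractions was set against marker genes. Over the mean of days, 0.642% of all genes passed the test between the fractions. Of 10 biliary markers, 2 passed as higher in YFP-positive cells and all 10 had positive differences, with a median log2 difference of 2.87. Of 18 stellate and mesenchymal markers, 6 passed as lower in YFP-positive cells and 14 had negative differences, with a median of -2.52, against a median of 0.06 over all genes. The array YFP-positive day 3 replicate 3 stood apart from its fraction in biliary markers. Its mean over the biliary markers was -0.91, while the other 8 YFP-positive arrays had 1.19 to 3.43, the YFP-negative arrays -2.69 to 1.31 and the day 0 arrays -0.28 and 0.62. Results are therefore also given without it. It was not the only array whose biliary mean lay in the range of the other fraction. YFP-negative day 14 replicate 3 had 1.31, above the 1.22 and 1.19 of YFP-positive day 7 replicates 3 and 4. In these bulk samples, fewer cells of a type and less RNA per cell cannot be told apart.

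Sequences of 3 probes are shown here because their places in the messages bear on the results: 1 lies in a classical ligand, 1 in a CUB-domain ligand and 1 near the 5′ end of Pdgfra. They are given 5′ to 3′ in the sense of the message as the scanner files hold them. Capitals mark the probe that can be read without a stop codon in only 1 frame, the Pdgfra probe. It is also the only probe of the 3 that passed the test between the fractions.
Pdgfa, from base 670 of its transcript: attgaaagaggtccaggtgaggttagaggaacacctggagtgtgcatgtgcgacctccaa
Pdgfd, from base 1201: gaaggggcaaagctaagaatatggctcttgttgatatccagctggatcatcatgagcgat
Pdgfra, from base 281: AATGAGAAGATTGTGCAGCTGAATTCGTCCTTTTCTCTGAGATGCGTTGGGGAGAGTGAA
On mm9, as the scanner files place them, the Pdgfa probe lies at chr5:139455132-139455191 on the minus strand, the Pdgfd probe at chr9:6376926-6376985 on the plus strand and the Pdgfra probe at chr5:75559613-75559672 on the plus strand. The Pdgfra probe is in the coding part of the message, in the stretch for the outer, ligand-binding portion of the receptor. The other Pdgfra probe starts at base 6211 of the transcript, in the 3′ untranslated region.

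The receptor genes had lower and the ligand genes higher mean levels in YFP-positive than in YFP-negative cells. Over the mean of days 3, 7 and 14, the fitted level of Pdgfrb was 15.5-fold lower and that of Pdgfra 6.13-fold lower in YFP-positive cells, while Pdgfc was 3.58-fold, Pdgfb 2.37-fold, Pdgfa 1.74-fold and Pdgfd 1.53-fold higher. With 1 probe per gene, 0 of the 6 genes passed the limma threshold in this comparison, in which 0.642% of all genes passed. At an unadjusted p under 0.05, 5 of the 6 genes passed, all but Pdgfd, where 21.4% of all genes did. Without YFP-positive day 3 replicate 3, the array low in biliary markers, 4 of the 6 genes passed, Pdgfb, Pdgfc, Pdgfra and Pdgfrb, among 1219 genes of the whole array. Without YFP-positive day 3 replicate 4 no call of a member changed in this comparison, and 187 genes of the whole array passed. Nor did a call change without YFP-negative day 14 replicate 3, the YFP-negative array highest in biliary markers, where 217 genes passed. As fitted with all arrays, none of the 6 genes passed at a single day either, where 0 of all genes passed at days 3 and 7 and 0.0225% at day 14. In the fit over all probes, the Pdgfra probe near the 5′ end fell in YFP-positive cells and passed the threshold, which 0.654% of all probes did.

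**Figure D1:**
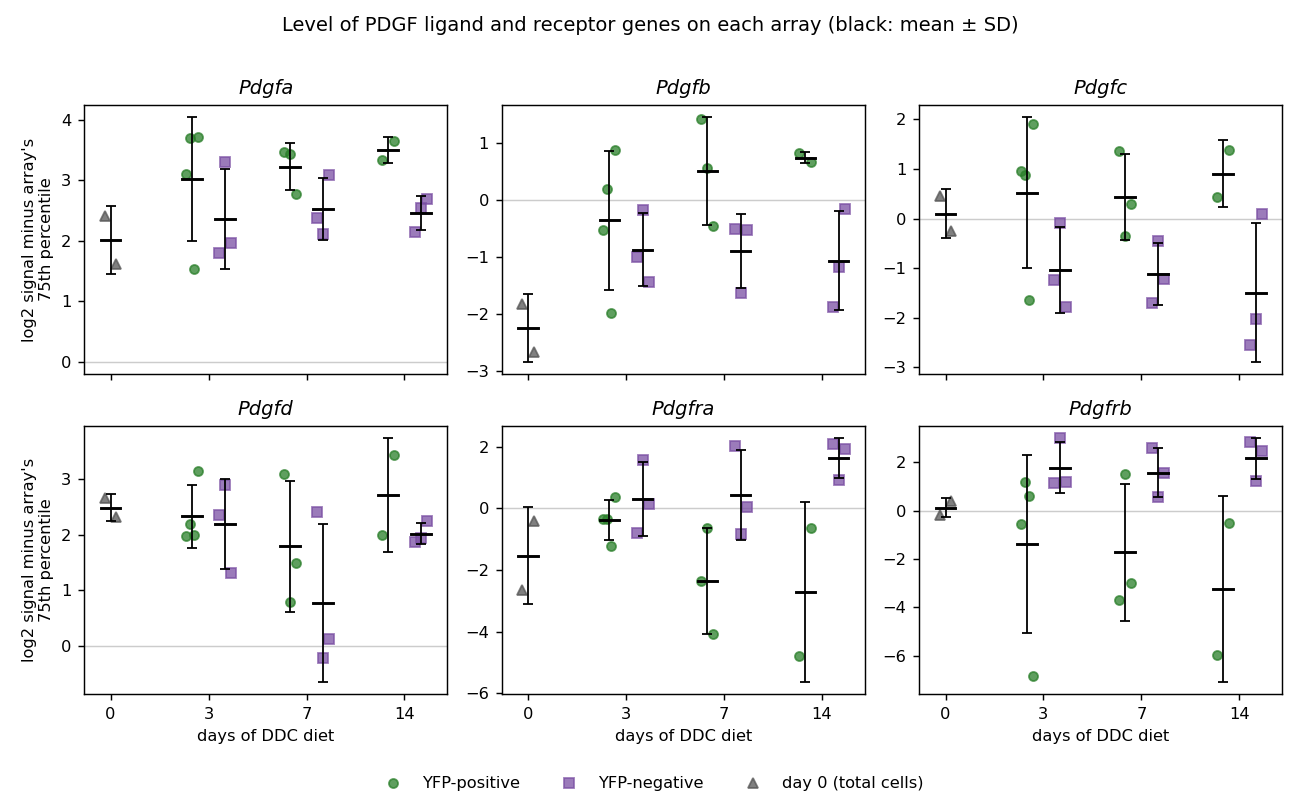
Level of the 6 genes on each of the 20 arrays by days of DDC diet (x axis), as log2 signal minus the array's 75th percentile (y axis, own scale in each panel), with 1 probe per gene; YFP-positive arrays stand left of YFP-negative ones, and black bars are the mean and SD of a group. The YFP-positive arrays of Pdgfra spread widely downward at days 7 and 14, and those of Pdgfrb at days 3, 7 and 14, with the lowest, -6.83, at day 3. The YFP-positive arrays of Pdgfb and Pdgfc lie above the YFP-negative ones at days 7 and 14, when the fractions of 9.39% and 34.2% of all genes did not overlap.

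Pdgfra encodes the alpha receptor, which in the liver marks mesenchymal cells. Its probe near the 5′ end had levels of -2.42, -4.65, -0.94 and -2.79 on the 4 YFP-positive arrays of day 3, against -1.60, -0.27 and -0.44 on the 3 YFP-negative ones. At day 7 it had -4.89, -4.24 and -4.99 in YFP-positive cells, against 1.24, -1.12 and -0.51 in YFP-negative cells. At day 14 it had -5.02 and -2.83 in YFP-positive cells, against 1.74, 0.42 and 1.51 in YFP-negative cells, and the day 0 arrays had -1.99 and -1.05. At days 7 and 14 every YFP-positive array was below every YFP-negative array. With 1 probe per gene, 9.39% of all genes had fractions that did not overlap at day 7 and 34.2% at day 14. At day 3 only YFP-positive replicate 3, the array low in biliary markers, was within the YFP-negative range. Over the mean of days the log2 difference of this probe was -3.89 ± 0.50 (SE), a 14.8-fold lower level in YFP-positive cells, with a limma adjusted p of 0.00835 over all probes. By day the differences were -1.93 at day 3, -4.57 at day 7 and -5.15 at day 14, with adjusted p-values of 0.606, 0.265 and 0.0722, so that no single day passed; 0 of all probes passed at days 3 and 7, and 0.00505% at day 14. Without YFP-positive day 3 replicate 3 the mean of days was -4.08, and leaving out each array in turn gave -4.25 to -3.52 for the mean of days with adjusted p-values of 0.00233 to 0.0262. With the 7 slides as fixed blocks the difference was -3.73 and its adjusted p was 0.334.

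The probe in the 3′ untranslated region of Pdgfra was printed 10 times on the array, and the spots of 1 array had an SD of 0.042 to 0.175 on the log2 scale. Their mean was -0.35, -0.34, -1.23 and 0.36 on the YFP-positive arrays of day 3, against -0.81, 1.58 and 0.15 on the YFP-negative ones. At day 7 the levels were -2.37, -0.64 and -4.09 in YFP-positive cells, against 2.03, -0.82 and 0.06 in YFP-negative cells. At day 14 they were -4.79 and -0.65 in YFP-positive cells, against 2.10, 0.91 and 1.92 in YFP-negative cells, while day 0 had -2.65 and -0.42. The groups overlapped at days 3 and 7 and lay apart at day 14, as they did for 34.2% of all genes. The YFP-positive arrays of a day differed among themselves by far more than the spots of an array. The mean-of-days difference of this probe was -2.61 ± 0.64 (SE, limma adjusted p = 0.0654), with -0.70 ± 1.02 at day 3, -2.79 ± 1.09 at day 7 and -4.36 ± 1.22 at day 14. The mean-of-days difference was -2.52 with a limma adjusted p of 0.0468 when YFP-positive day 3 replicate 3 was left out. The widening from day 3 to day 14 was tested as an interaction and gave -3.66 ± 1.59 with an unadjusted limma p of 0.036 and an adjusted p of 1. At day 14 the difference was -6.43 without YFP-positive replicate 2 and -2.29 without YFP-positive replicate 1, and the interaction was -5.73 and -1.59 without these same arrays. The day 7 difference was -3.65 without YFP-positive replicate 3 and -1.93 without YFP-positive replicate 4, and at day 3 -1.25 without YFP-negative replicate 1 and -0.0614 without YFP-negative replicate 3. Under quantile normalization, median scaling or a trended and robust prior the mean-of-days adjusted p was 0.0423, 0.0479 and 0.0495, on the other side of the threshold. Without YFP-positive day 14 replicate 2, the array with the higher level of its group, the difference was -3.31 with an adjusted p of 0.0374.

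**Figure D2:**
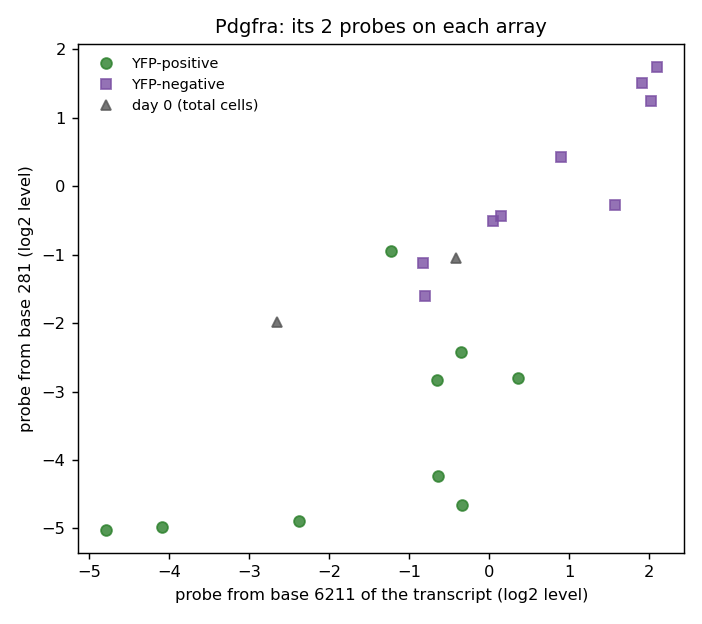
Log2 level of the Pdgfra probe that starts at base 281 of the transcript (y axis) against the probe that starts at base 6211 (x axis) on each of the 20 arrays. The YFP-negative arrays form a rising band, while 5 YFP-positive arrays with levels of -0.65 to 0.36 on the x axis lie between -4.65 and -2.42 on the y axis.

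Both Pdgfra probes were lower in YFP-positive cells over the mean of days, yet they did not order the arrays alike. On the 5 YFP-positive arrays with the highest levels of the 3′ probe, from -0.65 to 0.36, the 5′ probe had -4.65 to -2.42. On the 5 YFP-negative arrays in the lower part of their range, from -0.82 to 0.91 for the 3′ probe, the 5′ probe had -1.60 to 0.42. The 5′ level minus the 3′ level had a median of -2.19 over the YFP-positive arrays, from -4.32 to 0.29. Over the YFP-negative arrays the median was -0.56, from -1.84 to -0.30, and the day 0 arrays had 0.66 and -0.63. The size of the difference between the fractions thus depended on the probe. What lies behind this was not tested, nor which isoform or piece of the message each probe reports in these cells.

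Pdgfrb, the beta receptor of stellate cells and pericytes, had 1 probe. It had levels of -0.54, 1.19, 0.60 and -6.83 on the YFP-positive arrays of day 3, against 1.13, 2.98 and 1.19 on the YFP-negative ones. At day 7 it had -3.71, 1.53 and -3.01 in YFP-positive cells, against 2.57, 0.57 and 1.55 in YFP-negative cells. At day 14 it had -5.98 and -0.53 in YFP-positive cells, against 2.82, 1.22 and 2.44 in YFP-negative cells, and the day 0 arrays had -0.17 and 0.40. Every YFP-negative array lay above both day 0 arrays, while the YFP-positive arrays ran from the range of the YFP-negative ones down to levels far below any of them. The mean-of-days difference was -3.96 ± 1.09 (SE, limma adjusted p = 0.0807). By day it was -3.16 ± 1.73 at day 3, -3.29 ± 1.85 at day 7 and -5.41 ± 2.07 at day 14. Single arrays moved these values: day 3 ran from -4.02 without YFP-positive replicate 2 to -1.35 without YFP-positive replicate 4, day 7 from -4.92 without YFP-positive replicate 3 to -2.31 without YFP-positive replicate 1, and day 14 from -8.14 without YFP-positive replicate 2 to -2.69 without YFP-positive replicate 1. Without YFP-positive day 3 replicate 3 it was -4.18 with a limma adjusted p of 0.0475. Without YFP-positive day 3 replicate 4, which had the lowest value, the mean-of-days difference was -3.35 with an adjusted p of 0.0722.

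**Figure D3:**
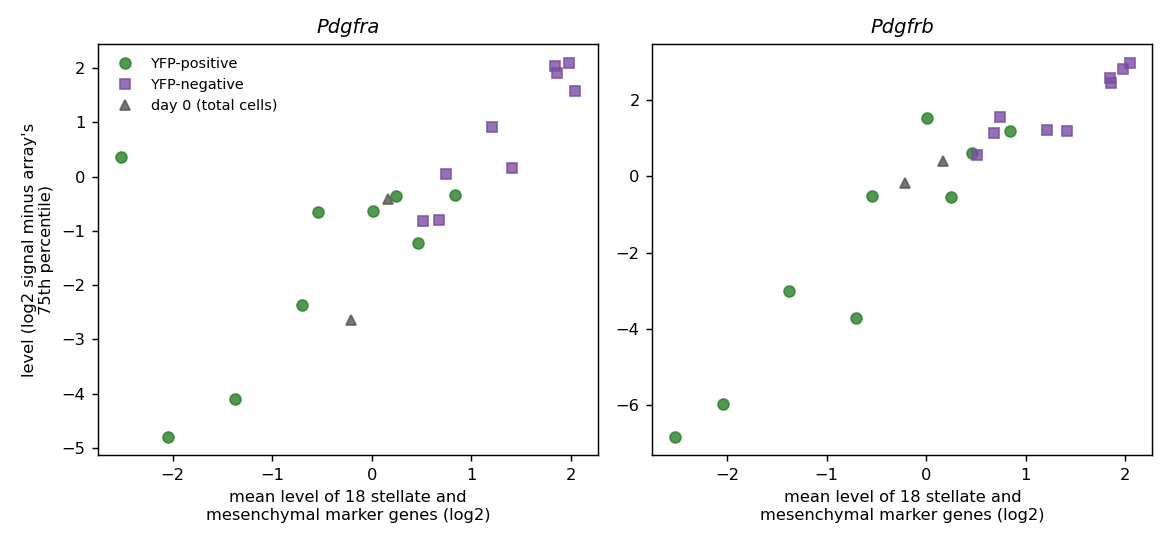
Log2 level of Pdgfra (left, 3′ probe) and Pdgfrb (right) on each of the 20 arrays against the mean log2 level of 18 stellate and mesenchymal marker genes on the same array. Both receptors run upward with the marker mean, and 1 YFP-positive array with a marker mean of -2.52 has a Pdgfra level of 0.36, off that trend.

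The mean of the mesenchymal markers ran with the receptors, but not on every array. The mean over the 18 markers was -2.52 to 0.84 on the 9 YFP-positive arrays, with a median of -0.54, against 0.52 to 2.05 on the 9 YFP-negative arrays, with a median of 1.41, and -0.21 and 0.17 on the day 0 arrays. The 6 markers that passed as lower in YFP-positive cells were Lrat, the retinol esterifying enzyme of stellate cells, Tagln, a smooth muscle actin-binding protein, the collagen chain gene Col1a1, the secreted glycoprotein gene Reln, the neurotrophin receptor gene Ngfr and the matrix proteoglycan gene Lum. Of the 18 markers only Col1a1 was not well above background on every array, being so on 7 of the 9 YFP-positive and all 9 YFP-negative arrays. Not all of the 18 had lower means in YFP-positive cells. The array with the lowest Pdgfrb level, YFP-positive day 3 replicate 4, also had the lowest marker mean. The same array had the highest level of the 3′ Pdgfra probe among the YFP-positive arrays, 0.36. The part of the mesenchymal markers in the receptor differences was not tested.

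Among the ligands, Pdgfc had the largest fitted difference. PDGF-C is a CUB-domain ligand of the alpha receptor. Its brightest probe had levels of 0.95, 0.88, -1.64 and 1.90 on the YFP-positive arrays of day 3, against -1.25, -0.08 and -1.78 on the YFP-negative ones. At day 7 it had 1.37, -0.34 and 0.30 in YFP-positive cells, against -1.70, -0.45 and -1.21 in YFP-negative cells. At day 14 it had 0.43 and 1.38 in YFP-positive cells, against -2.54, -2.02 and 0.09 in YFP-negative cells, and the day 0 arrays had 0.45 and -0.25. The fractions did not overlap at days 7 and 14, as those of 9.39% and 34.2% of all genes did not. At day 3 only YFP-positive replicate 3 fell within the YFP-negative range. The mean-of-days difference was 1.84 ± 0.50 (SE, limma adjusted p = 0.0767), and the differences by day were 1.56 ± 0.79, 1.56 ± 0.85 and 2.39 ± 0.95. With YFP-positive day 3 replicate 3 left out it was 2.08, with an adjusted p of 0.016. A second Pdgfc probe gave 1.71 ± 0.51 with an adjusted p of 0.096 over all probes. The remaining Pdgfc probe was dim, well above background on 5 of the 9 YFP-positive arrays, 3 of the 9 YFP-negative arrays and both day 0 arrays, and on none of the YFP-positive arrays of day 14, so no difference is given for it.

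Pdgfb encodes the ligand of both receptors. Its brightest probe had levels of -0.52, 0.21, -1.97 and 0.89 on the YFP-positive arrays of day 3, against -0.99, -0.17 and -1.44 on the YFP-negative ones. At day 7 it had 1.43, 0.56 and -0.46 in YFP-positive cells, against -0.50, -1.63 and -0.53 in YFP-negative cells. At day 14 it had 0.83 and 0.68 in YFP-positive cells, against -1.86, -1.17 and -0.14 in YFP-negative cells, and the day 0 arrays had -1.82 and -2.66. The fractions overlapped at day 3, were separated by a narrow gap at day 7 and lay apart at day 14. Fractions without overlap were found for 9.39% of all genes at day 7 and 34.2% at day 14. The mean-of-days difference was 1.24 ± 0.41 (SE, limma adjusted p = 0.114), with 0.52 ± 0.65 at day 3, 1.40 ± 0.69 at day 7 and 1.81 ± 0.77 at day 14. It was 1.42 with an adjusted p of 0.038 when YFP-positive day 3 replicate 3 was left out. The second Pdgfb probe gave 1.59 ± 0.55 with an adjusted p of 0.133 over all probes. It read 1.47 on YFP-positive day 3 replicate 4, but -2.30, -2.91 and -3.31 on the other YFP-positive arrays of day 3.

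Pdgfa encodes the ligand of the alpha receptor that many epithelia make. Its brightest probe had levels of 3.10, 3.70, 1.54 and 3.71 on the YFP-positive arrays of day 3, against 1.79, 3.31 and 1.97 on the YFP-negative ones. At day 7 it had 3.46, 3.44 and 2.78 in YFP-positive cells, against 2.37, 2.11 and 3.09 in YFP-negative cells. At day 14 it had 3.34 and 3.65 in YFP-positive cells, against 2.14, 2.54 and 2.70 in YFP-negative cells, and the day 0 arrays had 2.42 and 1.62. The fractions overlapped at days 3 and 7 and not at day 14, when those of 34.2% of all genes did not. The mean-of-days difference was 0.80 ± 0.33 (SE, limma adjusted p = 0.18), and 0.96 with an adjusted p of 0.0529 without YFP-positive day 3 replicate 3. The Pdgfa probe printed above gave 1.17 ± 0.36 with an adjusted p of 0.103 over all probes.

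Pdgfd encodes the CUB-domain ligand of the beta receptor. The probe printed above had levels of 1.97, 2.19, 1.99 and 3.15 on the YFP-positive arrays of day 3, against 2.36, 2.90 and 1.32 on the YFP-negative ones. At day 7 it had 3.09, 0.79 and 1.48 in YFP-positive cells, against 2.40, -0.22 and 0.12 in YFP-negative cells. At day 14 it had 1.99 and 3.44 in YFP-positive cells, against 1.88, 1.94 and 2.24 in YFP-negative cells, and the day 0 arrays had 2.66 and 2.31. The fractions overlapped on all 3 days, and 2 of the 3 YFP-negative arrays of day 7 were the lowest of all. The mean-of-days difference was 0.62 ± 0.42 (SE, limma adjusted p = 0.408), with 0.66 when YFP-positive day 3 replicate 3 was left out, and with slides as fixed blocks its sign turned, to -0.28. The second Pdgfd probe gave 1.29 ± 0.48 with an adjusted p of 0.153 over all probes.

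**Figure D4:**
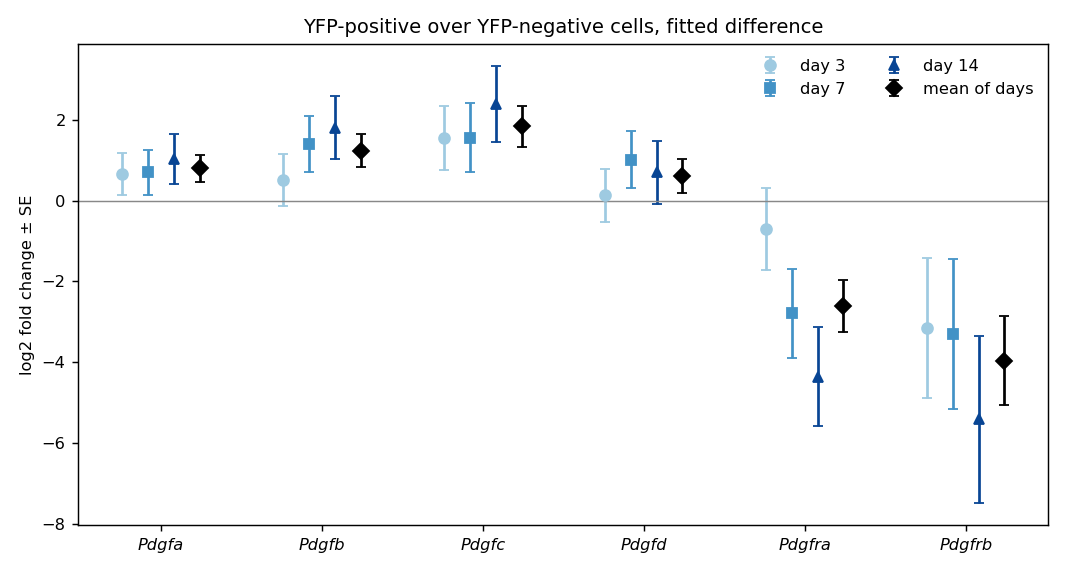
Fitted log2 fold change of YFP-positive over YFP-negative cells (y axis, ± SE) for the 6 genes at days 3, 7 and 14 of the diet and for the mean of days, with 1 probe per gene. Ligand genes stand above 0 and receptor genes below it; no point passed the adjusted threshold in this fit.

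No member was without overlap at day 3, where 5.45% of the genes with values on all arrays had fractions that did not overlap. At day 7 Pdgfb and Pdgfc did not overlap and were higher in YFP-positive cells, beside 9.39% of all genes. At day 14 Pdgfa, Pdgfb and Pdgfc were higher and Pdgfra and Pdgfrb lower without overlap, beside 34.2% of all genes, with 2 YFP-positive arrays against 3. Over all 9 arrays against 9, the 6 genes each overlapped, and 0.0493% of all genes did not.

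**Figure D5:**
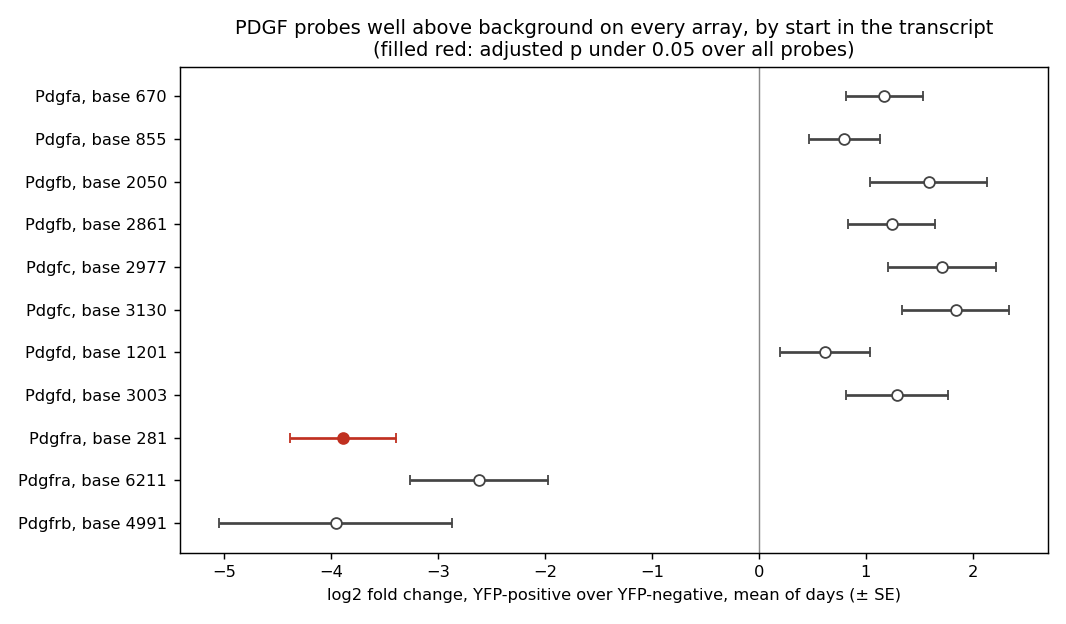
Fitted log2 fold change of YFP-positive over YFP-negative cells over the mean of days (x axis, ± SE) for the 11 PDGF probes well above background on every array, named by gene and by the base of the transcript at which the probe starts. The 8 ligand probes lie between 0.62 and 1.84 and the 3 receptor probes between -3.96 and -2.61; the filled red point is the probe with an adjusted p under 0.05.

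Of the 11 probes that were well above background on every array, the 8 ligand probes had positive and the 3 receptor probes negative differences over the mean of days. The dim Pdgfc probe was left out of this tally. Probes of the same gene are not separate results, and the share of all probes with each sign was not counted. The median difference over all genes was 0.06. With slides as fixed blocks the brightest Pdgfd probe turned to -0.28.

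Several slides held sorted arrays of only 1 fraction, so that slide and fraction cannot be fully told apart, and the main fit did not include the slide. The fractions could be compared on a single slide and day in 3 cases, each as 1 array minus 1 array. On the slide with day 3 arrays of both fractions, the YFP-positive minus YFP-negative difference was 2.20 for Pdgfc, 1.31 for Pdgfa, 0.47 for Pdgfb and -0.39 for Pdgfd. On the same slide Pdgfrb had -1.67, and Pdgfra had 0.45 with the 3′ probe and -0.82 with the 5′ probe, while the biliary marker mean differed by 4.54 and the mesenchymal one by -0.43. On the 2 slides with day 7 arrays of both fractions, Pdgfc had 1.36 and 1.51, Pdgfb 1.07 and 0.07, Pdgfa 1.07 and -0.31, and Pdgfd -1.62 and 1.37. There Pdgfrb had -1.04 and -4.56, the 3′ probe of Pdgfra -2.67 and -4.15, and its 5′ probe -5.48 and -4.48, beside mesenchymal marker means that differed by -1.83 and -2.12. Within slides, the brightest Pdgfc and Pdgfb probes, Pdgfrb and the 5′ probe of Pdgfra kept their direction in all 3 cases, and Pdgfd and the 3′ probe of Pdgfra did not. The brightest Pdgfa probe did not either, while the Pdgfa probe printed above had 1.39 at day 3 and 1.13 and 0.19 at day 7. No slide held both fractions at day 14.

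Against day 0, Pdgfb had positive differences in both fractions on all 3 days. In YFP-positive cells its log2 difference was 1.89 ± 0.73 at day 3, 2.75 ± 0.77 at day 7 and 2.99 ± 0.85 at day 14, with limma adjusted p-values of 0.439, 0.204 and 0.186. In YFP-negative cells it was 1.37 ± 0.77, 1.35 ± 0.77 and 1.18 ± 0.77, with adjusted p-values of 0.747, 0.596 and 0.544. Each of the 18 sorted arrays but YFP-positive day 3 replicate 3 and YFP-negative day 14 replicate 1 read higher than both day 0 arrays. None of the 6 genes passed in any of the 6 comparisons with day 0, which share the same 2 day 0 arrays. Of all genes, 0.0525%, 0.0338% and 0.143% passed in YFP-positive cells at days 3, 7 and 14, and 0.045%, 0.0488% and 0.0338% in YFP-negative cells. The receptors differed from day 0 with opposite signs in the fractions at day 14: Pdgfra by -1.19 ± 1.34 in YFP-positive and 3.17 ± 1.22 in YFP-negative cells, and Pdgfrb by -3.37 ± 2.27 in YFP-positive and 2.04 ± 2.07 in YFP-negative cells. The sign turned for Pdgfra in YFP-positive cells, to 0.89, without YFP-positive day 14 replicate 1, and for Pdgfrb in YFP-negative cells, to -0.77, with slides as fixed blocks. Pdgfc differed by 0.80 ± 1.04 in YFP-positive and -1.59 ± 0.95 in YFP-negative cells at day 14. The median of all genes in these comparisons was -0.42 to -0.20. Within a fraction, none of the 6 genes passed between day 14 and day 3, where 0.0263% of all genes passed in YFP-positive cells and 0 in YFP-negative cells.

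The authors' deposited table may rest on more samples than the fit here, since the series holds 4 day 0 samples, of which 2 were used. In the authors' deposited table of signed fold changes against day 0, whose statistical method is not given in the sources used here, the brightest Pdgfb probe was 5.34-fold higher at day 3, 8.89-fold at day 7 and 9.77-fold at day 14 in YFP-positive cells, with false discovery rates of 5.04%, 0.94% and 0.61%. For YFP-negative cells the authors' deposited table gives this probe as 3.66-fold, 3.94-fold and 3.52-fold higher, with rates of 2.33%, 1.68% and 7.78%. The second Pdgfb probe in the authors' deposited table is 7.50-fold, 5.55-fold and 10.2-fold higher in YFP-positive cells, with rates of 9.55%, 1.12% and 0.71%, and 2.66-fold, 3.06-fold and 3.16-fold higher in YFP-negative cells, with rates of 8.88%, 13.12% and 13.45%. In the authors' deposited table the 10 rows of the 3′ Pdgfra probe are 8.26-fold to 10.4-fold higher in YFP-negative cells at day 14, with rates of 3.59% to 4.22%, and Pdgfrb is 5.34-fold higher there with a rate of 5.15%. For YFP-positive cells at day 14 the authors' deposited table has the brightest Pdgfa probe as 3.74-fold higher with a rate of 1.7%, the brightest Pdgfc probe as 2.73-fold higher with a rate of 5.44%, and Pdgfrb at a signed fold of -2.70 with a rate of 29.42%.

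Across the 7 groups as a whole, 0 of the 6 genes passed the limma F test, which 0.03% of all genes passed. Unadjusted p-values under 0.05 were found for Pdgfra, at 0.0164, and Pdgfb, at 0.0288, where 11.4% of all genes had one. Ordered by mean level, Pdgfa and Pdgfb had the 3 YFP-positive groups on top, then the 3 YFP-negative groups and day 0 at the bottom. Pdgfc had day 0 between the YFP-positive groups above and the YFP-negative groups below. The receptors had the 3 YFP-negative groups on top, and Pdgfd had the fractions mixed. Neighbouring groups differed by more than the larger of their SDs only between YFP-negative day 14 and day 0 for Pdgfb, by 1.18, between day 0 and YFP-negative day 3 for Pdgfc, by 1.14, and between YFP-negative day 7 and day 0 for Pdgfrb, by 1.45.

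The other genes of the pathway were read from 4 lists over the mean of days. Of 8 genes for ligand processing, activation and binding, 0 passed, 5 had lower and 3 higher means in YFP-positive cells, and the median log2 difference was -0.26, against 0.06 over all genes. The smallest p-values in that list belonged to Pdgfrl, a secreted receptor-like protein, at -0.76 ± 0.30 (limma adjusted p = 0.169), to the co-receptor gene Nrp1 at -1.10 ± 0.46 (limma adjusted p = 0.188) and to the endocytic receptor gene Lrp1 at -0.82 ± 0.57 (limma adjusted p = 0.42). Of 23 genes for proteins that bind the activated receptors, 0 passed, 15 had lower and 8 higher means, and the median was -0.36. Pik3r1, a regulatory subunit of phosphoinositide kinase, differed by -0.55 ± 0.18, the adaptor gene Nck2 by 0.90 ± 0.40 and the transcription factor gene Stat5b by -0.49 ± 0.22, with limma adjusted p-values of 0.112, 0.213 and 0.215.

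Of 10 early response genes that PDGF is known to induce in fibroblasts, 1 passed, where 0.642% of all genes did, with a list median of 0.09. Fosl1, an AP-1 subunit, fell in YFP-positive cells by 2.52 on the log2 scale (SE 0.52, limma adjusted p = 0.0391). The chemokine genes Ccl2 and Cxcl1 differed by 1.30 ± 0.41 and 0.76 ± 0.41, with limma adjusted p-values of 0.105 and 0.292, and 7 of the 10 genes had higher means. Of 14 related VEGF family ligands and receptor kinases with their ligands, 0 passed, with 8 lower and 6 higher means and a median of -0.22. The growth factor genes Figf and Vegfc differed by -2.57 ± 0.65 and -1.49 ± 0.47, and the VEGF receptor gene Flt1 by -0.996 ± 0.558, with limma adjusted p-values of 0.069, 0.105 and 0.316.

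Markers of cells known to make PDGF ligands were read in the same comparison. None of 8 platelet and megakaryocyte, 10 endothelial or 10 macrophage markers passed. The medians were 0.37 for platelet, -0.86 for endothelial and -0.60 for macrophage markers, and all 10 endothelial markers had lower means in YFP-positive cells. The platelet marker mean was -4.11 to -2.84 on YFP-positive arrays, against -4.34 to -3.20 on YFP-negative arrays and -3.93 and -3.31 on day 0 arrays. The macrophage mean varied more, from -3.25 to 3.56 on YFP-positive and from -1.02 to 3.90 on YFP-negative arrays. The endothelial mean was 0.71 to 3.83 on YFP-positive and 1.65 to 3.85 on YFP-negative arrays. The medians of 7 hepatocyte, 8 lymphoid and 6 erythroid markers were -0.79, -0.02 and -2.44, with 0 of each list past the threshold. The biliary marker mean had a median of 1.85 over the YFP-positive arrays, against -1.11 over the YFP-negative arrays, and the array low in these markers, YFP-positive day 3 replicate 3, was also the lowest YFP-positive array for Pdgfa, Pdgfb and Pdgfc. The YFP-negative array highest in these markers, day 14 replicate 3, was also the highest YFP-negative array for Pdgfb, at -0.14, and Pdgfc, at 0.09. The part of these cell types in the ligand differences was not tested.

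The genes whose levels ran most like each member were taken from 13864 genes with a symbol and a signal well above background, by Pearson correlation over the 20 arrays, which share their groups and slides. For Pdgfrb they were the matrix proteoglycan gene Lum at 0.959, Gdf2 at 0.942, the collagen gene Col3a1 at 0.933, Tbx20 at 0.923 and the procollagen peptidase gene Adamts2 at 0.917. For the 3′ probe of Pdgfra they were Reln at 0.906, the phosphodiesterase gene Pde1a at 0.870, the matrix gene Postn at 0.850, the adrenergic receptor gene Adra2a at 0.843 and the transcription factor gene Hand2 at 0.837. Lum and Col3a1, and Reln and Hand2, are among the 18 mesenchymal markers.

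For Pdgfa the nearest genes were the glucose transporter gene Slc2a1 at 0.906, the lipolysis-stimulated receptor gene Lsr at 0.902, the membrane linker gene Ezr at 0.896, Nucb2 at 0.895 and the syndecan gene Sdc4 at 0.890. For Pdgfb they were Maff at 0.921, Nucb2 at 0.911, Pdgfa itself at 0.889 and Ccl2 at 0.884. For Pdgfc they were the cadherin gene Celsr2 at 0.931, the receptor kinase gene Erbb3 at 0.905, the annexin gene Anxa4 at 0.904, Chmp4c at 0.899 and the claudin gene Cldn6 at 0.898. For Pdgfd they were the transcription factor gene Nfib at 0.936, the phosphatase gene Ptpn14 at 0.915, Aplp2 at 0.896, Tacc2 at 0.893 and Fnbp1l at 0.880. Nucb2 stands in the lists of both Pdgfa and Pdgfb, and no other gene named here stands in more than 1 of the 6 lists.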

How the data were processed

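The intensities were deposited as Agilent Feature Extraction scanner files of single Cy3 arrays (design 014868, mm9), in which the authors' software had subtracted background to give the processed signal, per the file headers. The headers name version 10.5.1.1 and the submitters' processing notes version 9.53. The authors' deposited table holds signed fold changes against day 0 (a score in which a fall is minus the inverse) and false discovery rates in percent, by a method not given in the sources used here. RNA was extracted and amplified to cDNA, per the labels' protocols.

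Processed signals were scaled to each array's 75th percentile and taken to log2. A probe stayed in when 2 or more arrays had it well above background, the probe of the highest mean stood for its gene, and limma 3.58.1 in R 4.3.3 was fitted over 7 groups (prior degrees of freedom 2.32, residual 13), with outlier spots missing (277 genes with a missing value). The code was tested on simulated data. All 6 members are described on every array; from each pathway list the 3 genes of smallest p and those past the threshold are named, and for each member the 5 genes of highest correlation, of which 1 is not reported here. The members and lists were chosen with earlier results of these data known. The main fit did not pair samples by replicate number, and whether same-numbered samples belong together is not known. Deviations of same-numbered arrays from their group means correlated at -0.24 to 0.39 over 8 pairs, and of others at -0.28 to 0.28 over 19. These correlations cannot decide it, since in groups this small the deviations constrain each other. Alternatives were background, scaling, filter, slide and replicate blocks, prior, and leaving out arrays. The number of arrays limits the precision.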

Additional observations from a re-analysis of the deposited data

How the results depend on the processing

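The 6 mean-of-days differences kept their sign under every alternative run, except Pdgfd with slides as fixed blocks. Under quantile normalization Pdgfra with 1 probe per gene had -2.53 (limma adjusted p = 0.0423), under median scaling -2.62 (limma adjusted p = 0.0479) and with a trended and robust prior -2.61 (limma adjusted p = 0.0495), so that 1 of the 6 genes passed in each, where 1125, 360 and 322 of all genes did, against 171 as reported. Without YFP-positive day 3 replicate 3, 4 of the 6 genes passed, among 1219 genes in all: Pdgfb at 1.42, Pdgfc at 2.08, Pdgfra at -2.52 (limma adjusted p = 0.0468) and Pdgfrb at -4.18 (limma adjusted p = 0.0475). Leaving out 1 array at a time, 0 to 4 of the 6 passed. Over those fits the mean-of-days differences ran from 0.70 to 0.96 for Pdgfa, 1.09 to 1.42 for Pdgfb, 1.66 to 2.10 for Pdgfc, 0.38 to 0.89 for Pdgfd, -3.31 to -1.92 for Pdgfra and -4.87 to -3.05 for Pdgfrb. The 5′ probe of Pdgfra at day 14 passed without YFP-positive day 3 replicate 4 (-5.15, limma adjusted p = 0.0442) and without YFP-positive day 14 replicate 2 (-6.25, limma adjusted p = 0.0475), with a range of -6.25 to -4.06.

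With slides as fixed blocks that probe gave -3.73 over the mean of days and did not pass (limma adjusted p = 0.334 over all probes). In the separate fit with 1 probe per gene and these blocks, 2 of all genes passed, and several differences that had not passed turned sign. Pdgfd turned to -0.28 over the mean of days, -0.98 at day 3 and -0.34 at day 14. Against day 0, Pdgfc in YFP-positive cells turned to -0.54, -0.38 and -0.35 at days 3, 7 and 14, Pdgfd to -0.23 in YFP-positive cells at day 14 and 0.22 and 0.11 in YFP-negative cells at days 3 and 14, Pdgfa in YFP-negative cells to -0.70, -0.70 and -0.77, and Pdgfrb in YFP-negative cells to -1.37 and -0.77 at days 7 and 14. Between day 14 and day 3 of YFP-negative cells Pdgfa turned to -0.0666 and Pdgfrb to -1.27. Median scaling turned Pdgfd in YFP-positive day 3 against day 0 to 0.14. With the replicate number as a block, Pdgfd turned to 0.15 in YFP-positive and 0.10 in YFP-negative cells of day 3 against day 0, and Pdgfrb to -0.91 between day 14 and day 3 of YFP-negative cells; no call of a member changed under this block, while 42 genes of the array passed in the mean-of-days comparison. The cause of these changes was not tested.

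Leaving out 1 array also turned the sign in 32 refits of differences that had not passed. The ranges for YFP-positive over YFP-negative cells were -0.30 to 0.49 for Pdgfd at day 3 and -0.0247 to 1.42 at day 14. For YFP-positive cells against day 0 they were -0.0331 to 1.15 for Pdgfc, -0.44 to 0.0114 for Pdgfd and -2.37 to 0.30 for Pdgfrb at day 3, -0.12 to 0.73 for Pdgfc and -1.95 to 0.28 for Pdgfra at day 7, and -0.49 to 0.95 for Pdgfd and -3.26 to 0.89 for Pdgfra at day 14. For YFP-negative cells of day 3 against day 0 they were -0.14 to 0.74 for Pdgfa and -0.65 to 0.14 for Pdgfd. Between day 14 and day 3 they were -0.0114 to 0.71 for Pdgfa, -0.34 to 0.85 for Pdgfc, -0.33 to 1.11 for Pdgfd and -4.58 to 0.87 for Pdgfrb in YFP-positive cells, and -0.18 to 0.58 for Pdgfa, -0.65 to 0.21 for Pdgfb, -1.25 to 0.0695 for Pdgfc and -0.61 to 0.18 for Pdgfd in YFP-negative cells. For the interaction they were -0.11 to 0.66 for Pdgfa, -0.16 to 1.29 for Pdgfd and -4.98 to 0.47 for Pdgfrb. Where 1 array was left in a group, it was taken to vary like the other groups.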
